A study of Mus musculus with 28 samples.

Results

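Complement and perforin-like genes were followed while mouse Pre-B cells trans-differentiated toward macrophages: the C1q chain genes C1qa, C1qb and C1qc, the central component gene C3, the receptor genes C5ar1 and C3ar1, the properdin gene Cfp, and the perforin-2 gene Mpeg1. They were taken by symbol from the RNA table, and all 8 were found among its 55450 genes in each of 12 RNA libraries. The cells were HAFTL derived C10 cells, 1 line, and every sample carried the CEBPalpha-ER transgene, 0h included. Induction used 100 nM β-estradiol, 10 nM IL-3 and CSF-1, and RNA was read at 0h, 1h, 12h and 48h in 3 biological replicates per time. Promoter Capture Hi-C (PCHi-C), which lists the DNA fragments that touch captured promoter fragments (baits), was merged from 2 biological replicates per time. No uninduced culture kept for the same hours was among these groups, so time and induction cannot be told apart.

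Complement is a cascade of serum and cell-surface proteins that tags microbes and debris for uptake. C1q, built of 3 kinds of chain, starts the classical pathway on antibody or dying cells, C3 is the component on which all the pathways converge, and properdin stabilizes the alternative pathway convertase that cleaves C3. The small fragments C3a and C5a signal through the G protein-coupled receptors C3aR and C5aR1 on myeloid cells. Perforin-2 is a pore-forming protein of phagocytes that shares the membrane attack complex and perforin (MACPF) domain with several terminal complement proteins and with lymphocyte perforin. Tissue macrophages are known as a main source of C1q, whereas most serum C3 comes from the liver.

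Levels below are in TPM, the share of a library's transcripts that a gene holds, a unit scaled for transcript length and library total, so that levels may be set beside each other between genes. In TPM the 2 ribosomal RNA-locus genes CT010467.1 and AY036118 took 70.3% to 82.9% of each library, and a change in their share moves every other gene. Changes were tested with limma on log2(TPM + 0.1), a scale that understates the change of low genes, and a gene was called where its Benjamini-Hochberg adjusted p was under 0.05 and its log2 fold change beyond 1. On this scale the median of all 16415 tested genes moved against 0h by 0.59 (1h), 0.34 (12h) and -0.18 (48h), and by -0.29 from 1h to 12h and -0.62 from 12h to 48h. Under median-of-ratios scaling, which centres the libraries on the typical gene, these medians lay between -0.0005 and 0.095. Genes called higher made up 93.9%, 75.5% and 36.9% of the calls at 1h, 12h and 48h against 0h, 34.1% from 1h to 12h and 13.0% from 12h to 48h. After scaling these shares were 58.6%, 56.0%, 53.0%, 58.2% and 50.3%. The depth of the libraries is unknown, since TPM keep none.

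Defining markers followed the labels in part. The summed level of 10 Pre-B cell genes was 296 to 338 TPM at 0h, 64.1 to 87.5 TPM at 12h and 26.9 to 38.4 TPM at 48h. That of 9 macrophage genes was 3.34 to 4.61 TPM at 0h, 229 to 327 TPM at 12h and 190 to 269 TPM at 48h, of which Lyz2 alone averaged 207 TPM at 12h and 109 TPM at 48h. The macrophage gene Cd14 was at 0 in each 0h library and averaged 46.7 TPM at 48h, while Mertk was at 0 at every time and Adgre1, which encodes F4/80, averaged 0.0967 TPM at 48h. The sum of 9 neutrophil genes was 0 to 0.54 TPM at 0h, 9.64 to 17.0 TPM at 12h and 1.85 to 4.62 TPM at 48h, with Mpo and S100a9 at 0 throughout. At 12h Camp alone averaged 8.69 TPM, and 5 of the 9 neutrophil genes were at 0 in all 3 libraries. Hepatocyte genes reached at most 0.06 TPM in any library, T or NK cell genes at most 0.17 TPM, and the 4 mast cell or basophil genes were at 0. The part of these cell types in the results below was not tested.

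Promoter sequences are shown for C3, the 1 gene of the set that peaked at 12h, and, as examples of the genes that were highest at 48h, for Cfp and Mpeg1. No relation between these letters and the RNA levels was tested. They are the 250 bases before the RefSeq start, 5′ to 3′ on the gene's strand (GRCm38.p6). Capitals mark letters of a C/EBP recognition sequence, TTGCNNAA or its reverse complement TTNNGCAA.
C3 (chr17:57228137-57228386, minus strand): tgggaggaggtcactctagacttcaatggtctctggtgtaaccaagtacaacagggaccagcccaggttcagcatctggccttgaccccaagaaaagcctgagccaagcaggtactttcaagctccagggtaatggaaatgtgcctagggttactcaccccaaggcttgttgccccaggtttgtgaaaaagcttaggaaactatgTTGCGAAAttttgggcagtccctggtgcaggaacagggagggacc
Cfp (chrX:20931556-20931805, minus strand): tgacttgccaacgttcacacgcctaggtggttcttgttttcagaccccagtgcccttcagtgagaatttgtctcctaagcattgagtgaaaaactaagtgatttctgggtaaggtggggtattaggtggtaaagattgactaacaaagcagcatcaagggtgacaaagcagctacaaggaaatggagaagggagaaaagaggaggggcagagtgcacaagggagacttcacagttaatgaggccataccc
Mpeg1 (chr19:12460520-12460769, plus strand): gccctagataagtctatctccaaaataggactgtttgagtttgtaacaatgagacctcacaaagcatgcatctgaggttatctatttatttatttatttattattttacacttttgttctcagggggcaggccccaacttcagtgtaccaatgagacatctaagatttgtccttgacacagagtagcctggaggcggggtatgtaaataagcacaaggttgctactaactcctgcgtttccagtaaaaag
The C/EBP letters stood in 9.57% of 32817 RefSeq promoters of the same length. Of 7 promoters of the set in that table (C1qa was not listed), C3 held them, as TTGCGAAA, at positions -45 to -38 from the start. The letters GAGGAAGT or their reverse complement ACTTCCTC, a core bound by the myeloid factor PU.1, stood in 2.44% of promoters. C1qc held them at positions -195 to -188 from its RefSeq start, nearer to the outer end of its gene span. The match is shown in capitals with 40 bases in all.
C1qc (chr4:136893086-136893125, minus strand): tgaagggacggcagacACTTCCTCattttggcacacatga
The windows of C1qb, C5ar1, C3ar1, Cfp and Mpeg1 held neither set of letters. The RefSeq starts are not always the outermost starts of the gene spans given below. The C5ar1 window (chr7:16259339-16259588) lay mostly inside its gene span, which ends at 16259540. The C1qc window (chr4:136892915-136893164) lay partly inside its span, which ends at 136893065. A match describes the letters in the window and not a bound site.

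C1q, the starter of the classical pathway, was not seen in the RNA. C1qa, C1qb and C1qc, which lie side by side on the minus strand of chromosome 4 (136895917 to 136898803, 136880129 to 136886187 and 136889804 to 136893065 in GRCm38), were listed at 0 TPM in each of the 12 libraries. They were below the mean of 0.1 TPM asked of a tested gene, so no test was run on them. In all, 29978 of the 55450 genes were listed at 0 in every library. None of 20 housekeeping genes and none of 72 cytosolic ribosomal protein genes was at 0 in any library, and the smallest value above 0 in the table was 0.01 TPM. At 48h, with the macrophage genes summing to at least 190 TPM, the C1q chains were thus listed at 0 as they were in the Pre-B cells. In bulk RNA of this kind, fewer cells of a type and less RNA per cell cannot be told apart.

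C3 rose early and was highest at 12h. The gene lies on the minus strand of chromosome 17 (57203970 to 57228136). At 0h the 3 libraries had 0.27, 0 and 0.09 TPM, and at 1h they had 3.14, 1.39 and 1.32 TPM. At 12h they had 6.13, 5.76 and 8.59 TPM. At 48h they had 1.03, 1.90 and 2.32 TPM. Every 12h library was above every library of the other times, the 0h libraries were below all the rest, and the 1h and 48h libraries overlapped. The means were 0.12 ± 0.137, 1.95 ± 1.03, 6.83 ± 1.54 and 1.75 ± 0.658 TPM (SD, n = 3 each).

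Against 0h, C3 was higher by a log2 fold change of 3.31 at 1h (SE 0.48, limma adjusted p = 0.000904), 5.15 at 12h (SE 0.48, adjusted p = 1.58e-05) and 3.20 at 48h (SE 0.48, adjusted p = 0.000222). From 1h to 12h it rose by 1.84 (SE 0.48, adjusted p = 0.0187 by limma). That call was lost without replicate 2 of 1h (adjusted p = 0.0702), without replicate 3 of 1h (0.0641), without replicate 3 of 12h (0.0586) and with a pseudocount of 0.01 (0.190). From 12h to 48h C3 was called lower with a log2 fold change of -1.95 (SE 0.48, limma adjusted p = 0.00848), where the median gene moved by -0.62. Median-of-ratios scaling gave -1.23 with a limma adjusted p of 0.0693 and was not called, and over 16 alternatives the adjusted p ran from 0.000951 to 0.123. On the scaled values the lowest 12h library (5.18) was still above the highest 48h library (3.09).

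Cfp, the gene of properdin, rose late. It lies on the minus strand of chromosome X (20925454 to 20931555). The 0h libraries had 0.30, 0.53 and 0.26 TPM and the 1h libraries 0.56, 0.48 and 0.42 TPM, and these groups overlapped. At 12h the values were 1.04, 0.89 and 1.18 TPM, above every earlier library. At 48h they were 20.53, 18.41 and 30.82 TPM, above all others. The means at 12h and 48h were 1.04 ± 0.145 and 23.3 ± 6.64 TPM (SD, n = 3), a ratio of 22.4, and the 48h mean was 64.0 times that of 0h.

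The change of Cfp at 1h was 0.38 (SE 0.27, limma adjusted p = 0.326) and was not called. At 12h it was 1.33 above 0h (SE 0.27, limma adjusted p = 0.00355), a call lost with a pseudocount of 1 and with quantile normalization. The step from 1h to 12h was 0.95 with a limma adjusted p of 0.0274 and missed the fold threshold, which it passed after scaling at 1.19. Cfp then rose from 12h to 48h by 4.33 (SE 0.27, limma adjusted p = 1.17e-06).

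Of the anaphylatoxin receptor genes, C3ar1 and C5ar1 rose, with different courses. A further one, C5ar2, averaged 0.1 TPM at 0h and 0.147 TPM at 48h and was not called (limma adjusted p = 0.658). C3ar1, which encodes the C3a receptor and lies on the minus strand of chromosome 6 (122847138 to 122856161), had 0, 0 and 0.04 TPM at 0h and 0.07, 0.03 and 0.03 TPM at 1h. At 12h its libraries had 0.86, 0.57 and 0.74 TPM. At 48h they had 31.68, 39.09 and 32.36 TPM. The 12h libraries stood apart from the earlier ones and the 48h libraries from all others, with means of 0.723 ± 0.146 and 34.4 ± 4.10 TPM (SD, n = 3) and a ratio of 47.5 between them.

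The difference of C3ar1 between 1h and 0h was 0.35 on the log2 scale (limma adjusted p = 0.339) and was not called. The gene was higher than at 0h by 2.86 at 12h (SE 0.26, limma adjusted p = 1.07e-05) and by 8.26 at 48h (SE 0.26, limma adjusted p = 1.36e-09). From 12h to 48h it rose by 5.40 (SE 0.26, limma adjusted p = 2.32e-07), the largest step of the 5 tested genes of the set between these times. With a pseudocount of 1 the 12h difference from 0h was 0.76 and no longer passed the fold threshold.

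C5ar1, which encodes the C5a receptor and lies on the minus strand of chromosome 7 (16246743 to 16259540), was listed at 0 in all 6 libraries of 0h and 1h. At 12h it had 0.79, 1.09 and 1.53 TPM, and at 48h it had 2.74, 2.17 and 3.44 TPM. Each 48h library was above each 12h library. The gene was called higher than at 0h at 12h (limma adjusted p = 7.37e-06) and at 48h (limma adjusted p = 2.44e-07), and no fold is given against a time at which it was listed at 0. From 12h to 48h it rose by 1.24 (SE 0.31, limma adjusted p = 0.00816), or by 1.96 after scaling (adjusted p = 0.000305). That call was lost with a pseudocount of 0.01 or of 1.

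The level of C3ar1 relative to that of C5ar1 was higher in every 48h library than in any 12h library. At 12h the log2 ratio of the C3ar1 level to the C5ar1 level was 0.12, -0.94 and -1.05 in the 3 libraries, near parity in 1 and below it in the others. At 48h it was 3.53, 4.17 and 3.23, with C3ar1 above C5ar1 in each library. The ratio, which does not depend on how a library is scaled, differed by 4.27 between the times. The exact permutation test over libraries gave a two-sided p of 0.1, the smallest that 3 against 3 allows. Groups that do not overlap always give this p, so it adds nothing to the order of the libraries.

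Mpeg1, the gene of the macrophage pore-forming protein perforin-2, had the highest 48h level of the set and was called higher at each step. It lies on the plus strand of chromosome 19 (12460779 to 12465283). Its libraries had 0.33, 0.33 and 0.32 TPM at 0h and 1.25, 0.94 and 0.86 TPM at 1h. They had 6.28, 6.84 and 6.76 TPM at 12h. At 48h they had 48.49, 60.48 and 52.32 TPM. No 2 times overlapped, and the means were 0.327 ± 0.00577, 1.02 ± 0.206, 6.63 ± 0.303 and 53.8 ± 6.12 TPM (SD, n = 3 each).

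At 1h Mpeg1 was called higher by 1.37 (SE 0.18, limma adjusted p = 0.000387), where the median gene had moved by 0.59. After scaling the difference was 0.79 (limma adjusted p = 0.00736), under the fold threshold. The rise was 2.61 from 1h to 12h (limma adjusted p = 3.26e-06) and 3.00 from 12h to 48h (limma adjusted p = 7.34e-07). Over the whole course it was 6.97 (SE 0.18, limma adjusted p = 2.22e-10), and the 48h mean was 165 times the 0h mean.

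**Figure D1:**
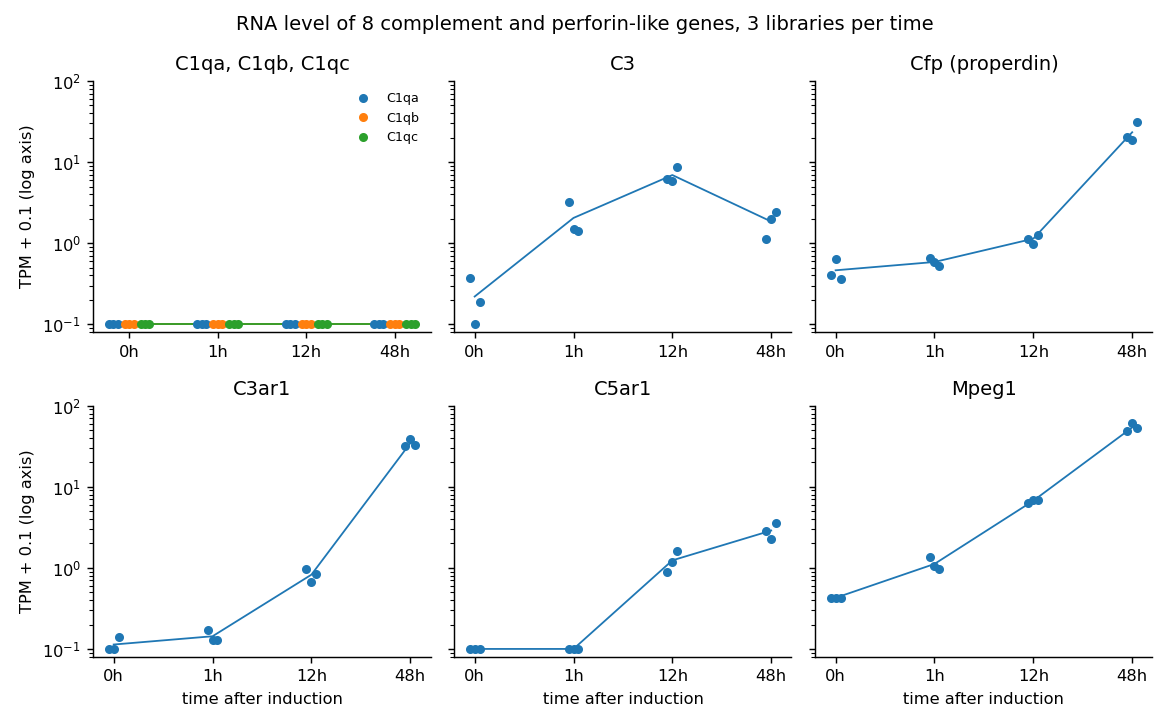
RNA level of the 8 genes in each of the 12 libraries, as TPM + 0.1 on a log axis against the 4 times, which are evenly spaced and not to scale. Points are libraries and lines join the means. The C1q genes sit at the 0.1 added to a level of 0, C3 is highest at 12h (5.76 to 8.59 TPM), and Cfp, C3ar1, C5ar1 and Mpeg1 are highest at 48h.

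Set beside each other, the 5 tested genes reached their levels at different times. The mean at 12h was 390% of the mean at 48h for C3, 40.8% for C5ar1, 12.3% for Mpeg1, 4.46% for Cfp and 2.10% for C3ar1. After median-of-ratios scaling these shares were 234%, 23.8%, 7.37%, 2.66% and 1.26%, in the same order. At 48h the order of levels was Mpeg1, C3ar1, Cfp, C5ar1 and C3. Neighbours in this order did not overlap in their libraries except for C5ar1 and C3, whose ranges of 2.17 to 3.44 TPM and 1.03 to 2.32 TPM met. At 12h C3 and Mpeg1 were highest and overlapped at 5.76 to 8.59 and 6.28 to 6.84 TPM, below them C5ar1 overlapped both Cfp and C3ar1, while the lowest Cfp library (0.89 TPM) was above the highest C3ar1 library (0.86 TPM).

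Counted over the set of 8, of which 5 were tested, 2 genes (C3 and Mpeg1) were called higher at 1h, when 16.7% of all tested genes were called higher. After median-of-ratios scaling 1 of them, C3, was called higher at 1h, where 4.05% of genes were. All 5 tested genes were called higher at 12h, against 17.7% of tested genes, and all 5 at 48h, against 13.5%. Both counts were also 5 after scaling, where the shares of all genes were 12.1% and 20.1%. From 1h to 12h 4 were called higher (5.49% of tested genes) and from 12h to 48h 4 were called higher (3.55%) and C3 lower (23.8%). After scaling all 5 were called higher from 1h to 12h (7.82% of genes, with 5.61% lower), and 4 higher from 12h to 48h (7.87%), while C3 was not called and 7.79% of genes were called lower. Genes that are near 0 at the start pass the filter on low values through their later levels alone, so these counts are not support for a property of the set.

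**Figure D2:**
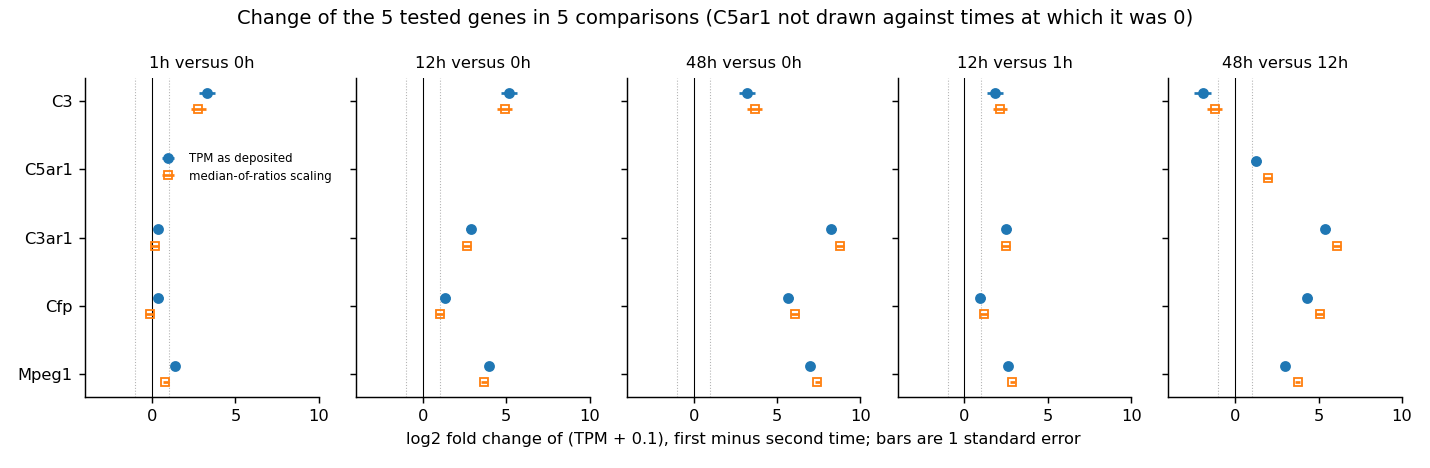
Log2 fold change of TPM + 0.1 for the 5 tested genes in 5 comparisons, with bars of 1 standard error from limma, as deposited (filled circles) and after median-of-ratios scaling (open squares). Dotted lines mark a log2 fold change of 1 in each direction. C3ar1 moves by 5.40 and C3 by -1.95 from 12h to 48h. C5ar1 is not drawn against 0h and 1h, where it was listed at 0.

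The wider pathway was read in 54 other complement and MACPF genes, of which 20 were listed at 0 in every library and 20 passed the filter. At 1h none of these 20 was called by limma in the values as deposited or after scaling. As deposited, 3 were higher and 0 lower at an unadjusted limma p under 0.05. The list median was then 0.31 on the log2 scale, where that of all tested genes was 0.59. After scaling the list median was -0.29. The 2 genes of the list with a scaled limma adjusted p under 0.05 were lower, at -0.92 and -0.87, under the fold threshold. At 12h 6 were called higher and 3 lower (4 and 3 after scaling), where 17.7% and 5.75% of all tested genes were (12.1% and 9.52% after scaling). At 48h 7 were called higher and 3 lower, both as deposited and after scaling, where 13.5% and 23.1% of all tested genes were (20.1% and 17.8% after scaling). The median change of the tested 20 at 48h was 0.33 on the log2 scale, and -0.18 for all tested genes. After scaling these medians were 0.77 and 0.095. Fcnb, Itgax, Itgam and C4b, called higher at 48h, averaged under 0.1 TPM at 0h and at 1h. They passed the filter through their later levels alone, so these counts and medians are not support for a property of the list.

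Receptors for deposited C3 fragments were among those that rose. Itgam, the α chain of complement receptor 3, had 0.07, 0.05 and 0.03 TPM at 0h and 6.47, 8.37 and 9.38 TPM at 48h, a change of 5.76 (SE 0.36, limma adjusted p = 2.02e-07). Itgb2, the β chain that it shares with other leukocyte integrins, averaged 1.33 ± 0.233 TPM at 0h and 10.3 ± 1.16 TPM at 48h, a change of 2.86 (limma adjusted p = 3.31e-07). Itgb2 already averaged 9.11 TPM at 12h, when Itgam averaged 0.503 TPM. Itgax, the α chain of complement receptor 4, was listed at 0 at 0h and 1h and was called higher at 48h at a mean of 0.973 TPM. Vsig4, also in the list of receptors, was listed at 0 TPM in every library and was not tested.

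Cr2, which encodes the B cell complement receptor CD21, went the other way, from 1.87 TPM at 0h to 0.123 TPM at 48h (log2 fold change -3.18, SE 0.64, limma adjusted p = 0.00164). C1qbp, a mainly mitochondrial protein named for its binding to C1q, had 26.7, 24.46 and 24.01 TPM at 0h and 0.39, 1.31 and 0.95 TPM at 48h, a change of -4.81 (SE 0.31, limma adjusted p = 3.01e-07). Cd93 and Calr, other surface or chaperone proteins once described as C1q receptors, were called higher at 12h but not after scaling, and neither was called at 48h. Of 8 tested receptor genes, 3 were called higher and 2 lower at 48h, beside 13.5% and 23.1% of all tested genes (20.1% and 17.8% after scaling).

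In the group listed under the start of the classical and lectin pathways, 2 of the 4 tested were called higher at 48h, beside 13.5% of all tested genes (20.1% after scaling). The group was drawn to include collectins, so a call in it is not by itself that of a pathway starter. Colec12, a scavenger receptor of the collectin family, had 4.54, 3.17 and 3.22 TPM at 0h and 14.09, 12.94 and 11.51 TPM at 48h, a change of 1.80 (SE 0.20, limma adjusted p = 2.36e-05). Fcnb, which encodes a ficolin of myeloid cells, was listed at 0 at 0h, averaged 2.60 TPM at 12h and 0.833 TPM at 48h. It was called higher at 48h, and, like Itgax, Itgam and C4b, it passed the filter through its later levels alone.

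Of the C3 convertase parts, C4b had 0, 0 and 0.15 TPM at 0h and 2.23, 2.52 and 4.22 TPM at 48h, a change of 4.45 (SE 0.51, limma adjusted p = 2.65e-05). C4a and C4b are near-identical, and the split of reads between them is uncertain. C4a averaged 0.357 TPM at 0h and 0.84 TPM at 48h and was not called. C2, the protease partner of C4b, averaged 0.45 TPM at 0h and 0.0467 TPM at 48h and was not called (log2 fold change -1.53, SE 0.89, limma adjusted p = 0.199). Cfb, the alternative pathway protease that acts with properdin, averaged 0.217 TPM at 0h and 0.777 TPM at 48h and was called higher by 1.58 (SE 0.51, limma adjusted p = 0.0259). Cpn1, the catalytic chain of the carboxypeptidase that trims C3a and C5a, went from 1.33 to 0.0833 TPM (log2 fold change -2.94, limma adjusted p = 2.70e-05). Itgax, Vsig4, Cr2, Cd93, Calr, C5ar2, Fcnb, C4a, C2, Cfb and Cpn1 were named after their values were seen.

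Of the genes of the membrane attack complex, none of 7 passed the filter and 5 were listed at 0 throughout. None of the 6 listed MACPF genes outside complement passed it either, and 5 of them were at 0 in every library, Prf1 (lymphocyte perforin) among them. Mpeg1 was thus the MACPF gene of this list that was measured above the filter. None of 3 tested membrane regulators was called at 48h by limma, where 13.5% of all tested genes were called higher and 23.1% lower. So few genes do not set this group apart from all tested genes. Their changes were -0.89 for Cd55, 0.84 for Cd46 and -0.75 for Cr1l, with limma adjusted p-values of 0.135, 0.168 and 0.0308. Prf1 and these 3 genes were also named after their values were seen.

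**Figure D3:**
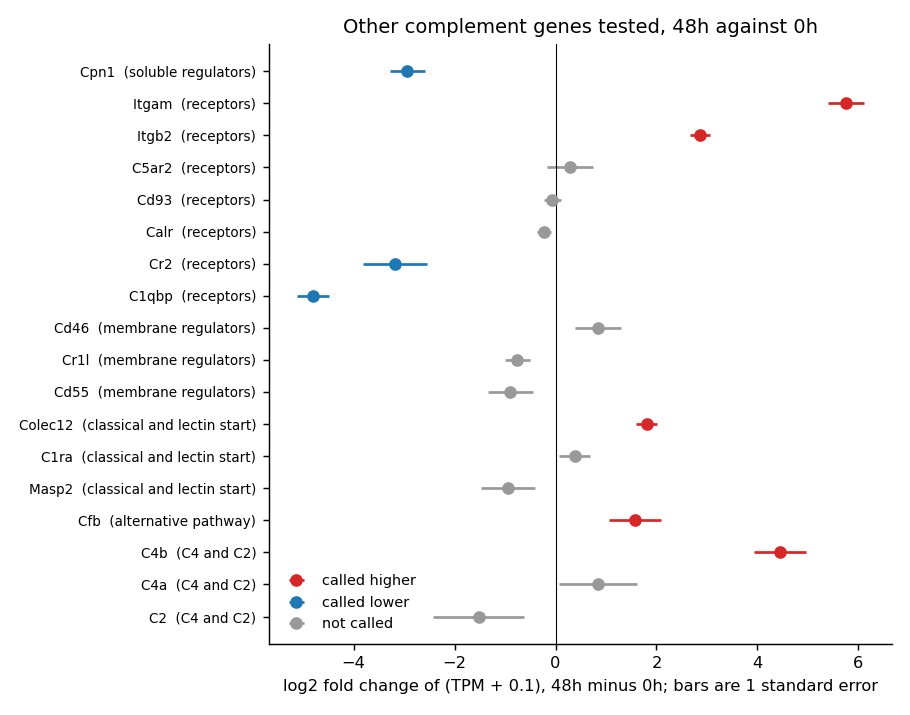
Log2 fold change of TPM + 0.1 at 48h against 0h for the tested complement genes outside the set of 8, grouped by role, with bars of 1 standard error from limma. Red genes were called higher, blue genes lower and grey genes were not called. Itgam (5.76) and C1qbp (-4.81) lie at the ends, and Fcnb and Itgax are not drawn because they were at 0 in each 0h library.

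The genes most like each of the 5 in course were sought among tested genes with a mean of at least 1 TPM, by Pearson r of log2(TPM + 0.1) over the 12 libraries, which share the same 4 times. C3 was closest to Diaph1 (r = 0.982), an actin-nucleating formin, and to Actr2 (0.981), a subunit of the Arp2/3 complex. Diaph1 averaged 3.75, 12.0, 24.1 and 12.1 TPM over the times, the same 12h peak. C5ar1 was closest to Ctsd (0.995), the lysosomal protease cathepsin D, and to Lcp2 (0.995), the adaptor SLP-76. C3ar1 was closest to Mmp12 (0.997), the macrophage elastase, and to Plxdc2 (0.996). Mmp12 averaged 0.00667, 0.107, 2.72 and 491 TPM, a late step like that of C3ar1. Cfp was closest to Lgals3bp (0.992) and Slfn4 (0.989), and Mpeg1 to Parp14 (0.994) and Ifi202b (0.992). Within the set r was 0.982 for C3ar1 with Cfp and 0.968 for C3ar1 with Mpeg1, and for C3 with the other 4 genes it was 0.269 to 0.569. These values describe likeness over a shared time course and carry no test.

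Promoter contacts were listed for baits holding the start of all 8 genes (mm10). C1qa, C1qb and C1qc shared 1 HindIII fragment of 20683 bases (chr4:136885680-136906362), so that their contacts cannot be separated. That fragment had 0 listed contacts at 0h and 1 at 48h, with 4 at each time between. Among 23193 genes with a bait, 3482 (15%) had 0 contacts at 0h, and the median was 5 contacts at each time. Of 7 fragments that touched the C1q fragment at some time, 1, lying 174.1 kb away (chr4:137068469-137071684), was listed at 1h, 12h and 48h. At 1h alone the partners included the bait of Wnt4, 381.9 kb away.

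The baits of the 5 tested genes had more listed contacts than the 1 C1q fragment at each time, at 0h as well, when C5ar1 RNA was listed at 0. At 0h C3ar1, with 6 contacts, was near the median of 5, and 46.6% of genes with a bait had at least as many. C3 had 19, 23, 29 and 20 listed contacts in order of time, highest at 12h as its RNA was. At 12h, 7.22% of genes with a bait had at least as many. Its partners at all 4 times included baits of Vav1 at 53.2 kb and Tnfsf9 at -121.0 kb (negative distances point to lower coordinates), Khsrp and Crb3 with Slc25a23. C5ar1 had 16, 28, 20 and 18 contacts, most at 1h, when its RNA was listed at 0. C3ar1 had 6, 8, 12 and 9, and Cfp had 13, 9, 15 and 18. Mpeg1 had 36, 26, 23 and 31 contacts, most at 0h, when its RNA level was lowest. With 1 merged list per time there is no replicate check on these counts, and no test was made. At 48h against 0h, C3, C5ar1, C3ar1, Cfp and the C1q fragment had more contacts and Mpeg1 fewer, where 42.6% of genes with a bait had more and 41.3% fewer. The lists differed in size, with 138769 interactions at 0h and 144072 at 48h, each counted once. They also differed in layout. The 0h list repeated no interaction, while the 48h list held its interactions on 152589 lines, and the 1h and 12h lists repeated some too. The part of this layout in the differences from 0h was not tested.

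**Figure D4:**
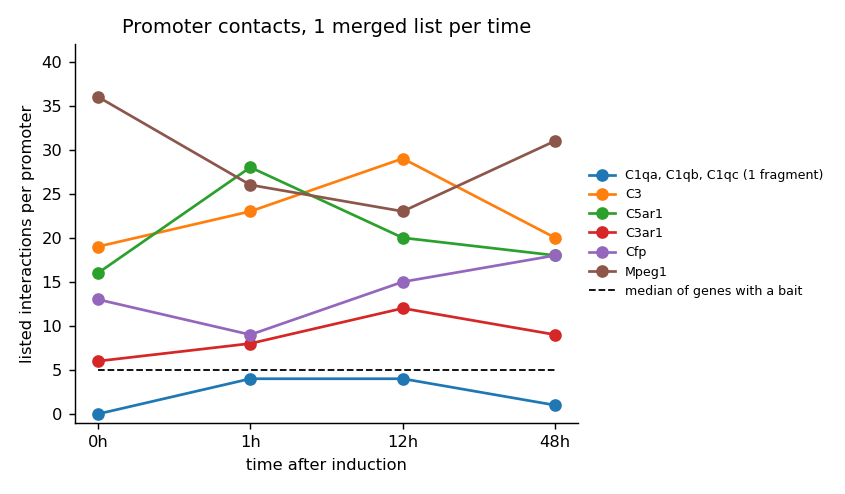
Number of listed interactions of each promoter fragment at the 4 times, which are evenly spaced and not to scale, with 1 merged list per time. The dashed line is the median of genes with a bait, 5 at each time. C3 is highest at 12h (29) and Mpeg1 at 0h (36), and the C1q fragment stays at 4 or below.

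Distant partner baits of C3ar1 were listed at later times only, with 1 merged list per time and no replicate check. Baits of Slc2a3 and Foxj2, at -46.3 and -31.9 kb, were listed as partners at all 4 times. The bait of Clec4d, 410.6 kb away (chr6:123261934-123265092), was listed at 12h and 48h, and that of Clec4n, 378 kb away (chr6:123225076-123236781), at 48h alone. Both encode myeloid C-type lectin receptors. Clec4d had 0 TPM in each 0h library and 5.47, 5.20 and 3.81 TPM at 48h, and Clec4n had 0 at 0h and 1h and 0.83, 0.16 and 1.08 TPM at 48h. These genes were looked up after the contacts were seen. Late partners were not particular to C3ar1. Partners listed at 12h or 48h and at neither earlier time numbered 7 for C3ar1 and 3 for the C1q fragment. They numbered 7 for C3, 10 for C5ar1, 9 for Cfp and 6 for Mpeg1. Cfp and Mpeg1 also had a distant partner bait listed at 48h alone, at -238.8 kb and 304.2 kb.

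Of the contacts present at 0h, 12 of 19 were also listed at 48h for C3, 10 of 16 for C5ar1, 5 of 6 for C3ar1, 11 of 13 for Cfp and 25 of 36 for Mpeg1. Over all baits 55.9% of 0h interactions were also listed at 48h. Cfp touched the baits of Timp1 (-57.5 kb) and Elk1 (19.4 kb) at all 4 times and that of Cdk16 at 48h alone. Mpeg1 touched a bait holding the starts of Lpxn and Zfp91 (334.7 kb away) and a bait holding a start of Lpxn (337.4 kb) at all 4 times, and the Dtx4 bait (41.1 kb) at 0h, 1h and 12h but not at 48h. C5ar1 kept the baits of Zfp541, Napa, Kptn and Meis3 throughout.

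**Figure D5:**
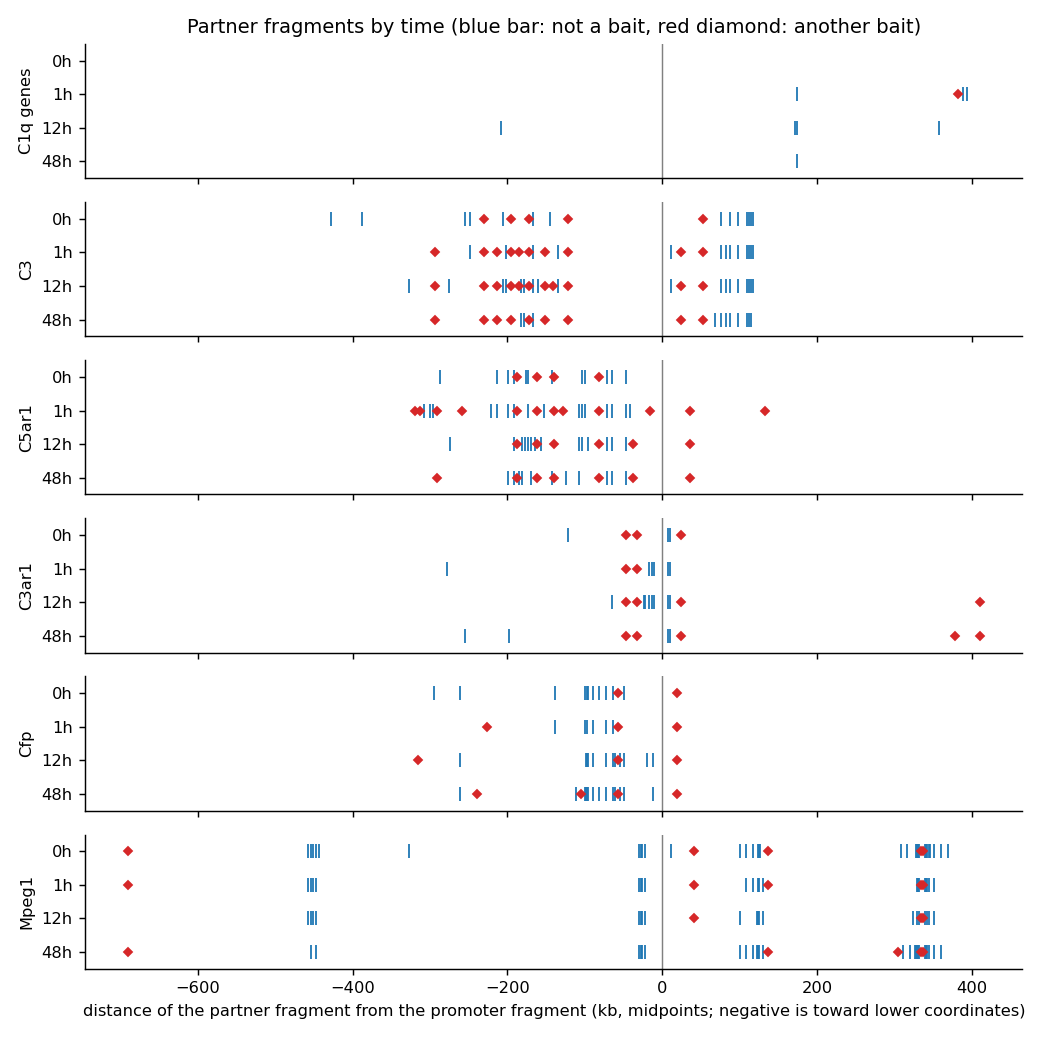
Distance of each partner fragment from the promoter fragment in kb between midpoints, 1 row per time and 1 panel per promoter, with blue bars for fragments that are not baits and red diamonds for other baits. The C1q fragment has no partner at 0h. C3ar1 has a partner bait 410.6 kb away at 12h and 48h and another at 378 kb at 48h.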

How the data were processed

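RNA-seq of 12 libraries and PCHi-C lists of 4 times were used. The authors depleted ribosomal RNA, and trimmed the reads (Trim Galore 0.6.2) and mapped them to mm10 (HISAT2 2.1.0). They deposited TPM from RSEM, which keep no depth. Interactions of PCHi-C were called by the authors in CHiCAGO after the 2 replicates of a time had been merged. A CHiCAGO score stands beside each interaction in the deposited list of 0h. In the other deposited lists a whole number stands there, taken as a count of read pairs and not used as a value.

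The 16415 genes whose mean TPM reached 0.1 were tested in R 4.3.3 with limma 3.58.1 on log2(TPM + 0.1), with a mean-variance trend, all 12 libraries in 1 model and Benjamini-Hochberg adjustment. The fold change over 2 follows the study's methods, which used DESeq2 on counts. Contacts were counted per gene over baits holding a GENCODE M21 start site. Promoters came from RefSeq (GRCm38.p6). Python 3.11.15 was used for the contacts and figures. The model was tested on simulated data.

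The 8 genes and the gene lists were chosen with earlier results of these data known. Named genes are the 8, complement genes called at 48h with a mean TPM of at least 1, and for likeness the 2 genes with the highest r, besides those stated as named later. Replicates are labelled as biological. Beyond that label, nothing says how the cultures were kept apart, so p-values measure the spread between these samples. Alternatives were other pseudocounts, filters, scalings and thresholds, a replicate block and leaving out each library.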

Additional observations from a re-analysis of the deposited data

How the results depend on the processing

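Of 379 values of single genes of the set under alternatives to 24 gene and comparison pairs, 353 kept their direction and their side of the threshold, 17 kept the direction and lost the call, 6 gained a call and 3 changed sign. The sign changes were of Cfp at 1h against 0h, not called either way, at -0.15 with median-of-ratios scaling, -0.017 when rescaled without the 20 most abundant genes and -0.35 with quantile normalization. The 2 genes called higher at 1h became 1 with a pseudocount of 1, under each of these 3 scalings and with a log2 threshold of 2. The 5 called higher at 12h became 3 with a pseudocount of 1. The 1 gene called lower from 12h to 48h, C3, became 0 with a pseudocount of 0.01, median-of-ratios scaling, quantile normalization or a log2 threshold of 2. The cause was not tested.

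In the list of 54, genes called higher at 1h numbered 1 with no fold threshold and genes called lower 1 with a pseudocount of 0.01. At 12h the 6 called higher became 3 with a log2 threshold of 2, and the 3 called lower became 1 with that threshold or with a mean TPM of at least 1. At 48h the 7 called higher became 4 with a pseudocount of 1 and 3 with a mean TPM of at least 1, a filter that tests fewer genes and left 1 called lower. With each library left out in turn, the set held 2 genes called higher at 1h, 5 at 12h, 5 at 48h, 3 to 5 from 1h to 12h and 4 from 12h to 48h. The list held 5 to 7 higher and 2 to 3 lower at 12h, and 6 to 7 higher and 3 to 4 lower at 48h.

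With a CHiCAGO score of at least 10 at 0h, fewer contacts remained by construction: 3 for C3, 3 for C5ar1, 1 for C3ar1, 2 for Cfp and 10 for Mpeg1. Taking baits within 1 kb of a start, or partners within 1 Mb, changed no count.

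In their deviations from the time means, libraries with the same replicate number correlated at -0.012 to 0.257 in 18 pairs, 7 of them over 0.1. Of 12 libraries, 5 correlated best with their own number at every other time. The main model took no pairs, and a replicate block was an alternative. A batch shared by replicate number was not tested. With a replicate block the set held 5 genes called higher at 48h and the list 7 higher and 3 lower, and no count of calls of the set changed. Without depth, an error of counting cannot be given for levels under 1 TPM, where the pseudocount decides several calls.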
